A study of Homo sapiens with 16 samples.

Results

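The gene-dense segment examined here is the stretch of the short arm of chromosome 19 between 3 and 19 Mb on hg38. A region belongs to it when its centre lies in that stretch, whatever its score. Of 1469949 TOP2A cleavage cluster regions (CCRs) in 5 lists, 7329 lay in the segment. They numbered 837 of 182582 with etoposide, 1645 of 415215 with genistein, 811 of 202865 with mitoxantrone, 2406 of 359249 with p-benzoquinone and 1630 of 310038 with DMSO.

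The cells were K562, an established line of human leukaemia with a BCR-ABL1 fusion. For 1 h they received etoposide at 25 µM, genistein at 50 µM or mitoxantrone at 2 µM. Others received p-benzoquinone at 8 µM for 4 h, or the vehicle, DMSO at 0.05%. DMSO at that concentration was also in the poisoned cultures, and no time is recorded for the vehicle libraries, so exposure times differ or are unknown in the comparisons with DMSO. TOP2A-bound DNA was captured with an antibody, released, amplified and sequenced, and the authors pooled 3, 2, 1, 2 and 3 amplified libraries into the lists of etoposide, genistein, mitoxantrone, p-benzoquinone and DMSO. A list is therefore 1 sample: there is no spread between replicates, no p-value is given, and intervals cover counting error only.

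DNA topoisomerase II alpha passes one duplex through a transient break in another while it stays covalently bound to the cut ends. Etoposide, genistein and mitoxantrone hold the enzyme on the cut DNA by occupying the break, whereas p-benzoquinone, a benzene metabolite, reacts covalently with the protein. A CCR is a place where DNA held by the enzyme piled up. Chromosome 19 is the human chromosome with the highest gene density and is rich in GC. Its short arm holds housekeeping and signalling genes beside clusters of zinc finger and olfactory receptor genes.

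Few CCRs of the segment fell in the 300 bases around a gene's start (250 before it and 50 after it, RefSeq, GRCh38.p14). Both windows below are shown because regions of 3 lists overlapped them, and because they are opposites in base composition. Both are on the minus strand and written 5′ to 3′, and capitals mark the bases inside a CCR of any list. The first, at chr19:3700419-3700718, belongs to PIP5K1C, a kinase that makes phosphatidylinositol 4,5-bisphosphate. The second, at chr19:14835136-14835435, is given by the table for the olfactory receptor genes OR7C1 and OR7A5 alike.
PIP5K1C: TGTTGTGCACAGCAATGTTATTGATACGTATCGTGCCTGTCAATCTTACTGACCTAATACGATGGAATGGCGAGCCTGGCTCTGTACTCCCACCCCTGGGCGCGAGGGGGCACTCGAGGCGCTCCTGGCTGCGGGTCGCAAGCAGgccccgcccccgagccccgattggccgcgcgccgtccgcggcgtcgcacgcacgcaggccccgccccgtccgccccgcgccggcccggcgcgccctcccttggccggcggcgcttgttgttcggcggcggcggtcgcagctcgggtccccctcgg
OR7C1 and OR7A5: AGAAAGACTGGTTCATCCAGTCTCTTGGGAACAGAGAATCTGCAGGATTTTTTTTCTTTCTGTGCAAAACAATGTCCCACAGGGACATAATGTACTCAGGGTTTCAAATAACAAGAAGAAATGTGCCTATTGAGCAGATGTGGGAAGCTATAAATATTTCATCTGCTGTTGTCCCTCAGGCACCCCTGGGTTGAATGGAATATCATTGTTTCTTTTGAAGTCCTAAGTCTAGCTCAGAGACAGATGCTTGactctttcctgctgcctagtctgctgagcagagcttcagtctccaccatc
The PIP5K1C window held 42 CpG and 71.7% G and C, and 145 of its bases lay in CCRs. Its CCR scores, in the authors' unstated unit, were 37.27 with mitoxantrone, 5.46 with p-benzoquinone and 2.07 with DMSO, and all of them covered the upstream end of the window. The olfactory receptor window held 0 CpG and 43.3% G and C, with 250 bases in CCRs, and held the letters TATAAA 1 time on the printed strand. Its scores were 10.76 with genistein, 10.04 with mitoxantrone and 6.76 with DMSO. The mitoxantrone and DMSO CCRs lay over bases 65 to 250 and 62 to 245 of the window, nearly the same stretch, while the genistein CCR covered bases 1 to 102.

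The segment held fewer CCRs per Mb than the other autosomes in the etoposide, genistein, mitoxantrone and DMSO lists, and more in the p-benzoquinone list. Density was counted over 100 kb bins with a CCR in any list, which left all 16 Mb of the segment and 2561.6 Mb of the other 21 autosomes. With etoposide there were 52.3 CCRs per Mb in the segment and 66.7 on the other autosomes, a ratio of 0.784 (95% interval 0.732 to 0.839). With genistein there were 103 and 152 per Mb, a ratio of 0.676 (0.643 to 0.709). The mitoxantrone list gave nearly the same ratio, 0.683 (0.636 to 0.731), from 50.7 CCRs per Mb in the segment and 74.3 elsewhere. With p-benzoquinone the segment had 150.4 CCRs per Mb and the other autosomes 133, a ratio of 1.13 (1.09 to 1.18). The vehicle list lay between them, at 102 and 114 CCRs per Mb and a ratio of 0.895 (0.852 to 0.94). None of these intervals held 1.

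**Figure D1:**
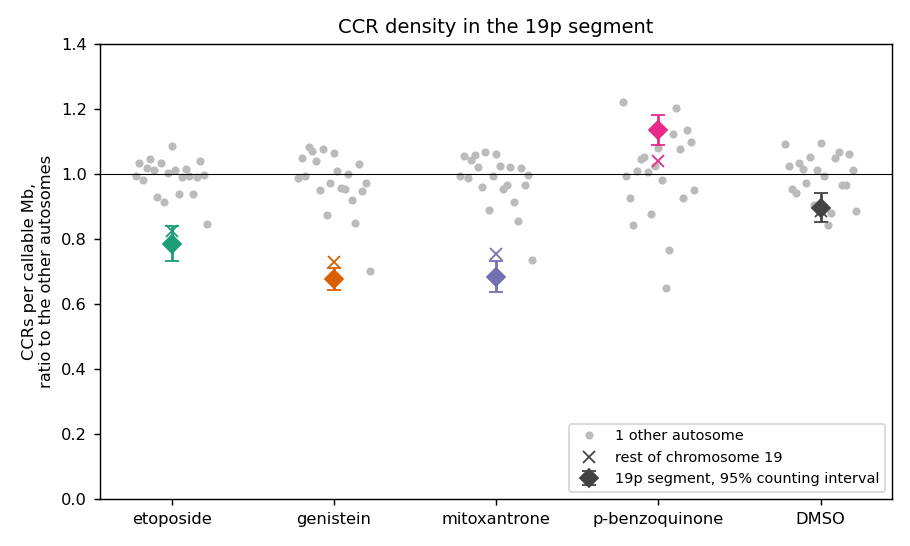
CCRs per callable Mb as a ratio to the other autosomes (vertical axis, linear) for the 5 lists. Coloured diamonds are the 19p segment with 95% counting intervals, crosses the rest of chromosome 19 and grey points the 21 other autosomes. The diamonds lie below every grey point for etoposide (0.784), genistein (0.676) and mitoxantrone (0.683). For genistein the interval of the segment, 0.643 to 0.709, holds the lowest grey point, chromosome 22 at 0.700.

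In the first 3 lists the segment was below each whole autosome: ranked with the 21 others from the highest density, it stood 22nd with etoposide, genistein and mitoxantrone. The lowest autosome in those lists was chromosome 22, a small and gene-rich one, at ratios of 0.847, 0.700 and 0.736. With genistein that value lay within the segment's interval of 0.643 to 0.709, so the order of the segment and chromosome 22 was not resolved there. With p-benzoquinone the segment stood at rank 4 and with DMSO at rank 19. Among 148 windows of 16 Mb on the other autosomes, the number below the segment was 5 with etoposide, 2 with genistein, 2 with mitoxantrone, 106 with p-benzoquinone and 24 with DMSO. The rest of chromosome 19, the remainder of both arms, showed the same order of lists, with ratios of 0.824, 0.729, 0.753, 1.04 and 0.887 for etoposide, genistein, mitoxantrone, p-benzoquinone and DMSO.

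Set against DMSO as shares of each list, the segment was lower with etoposide by a log2 ratio of -0.19 (95% interval -0.31 to -0.070). It was lower with genistein, at -0.41 (-0.51 to -0.31), and with mitoxantrone, at -0.39 (-0.51 to -0.27). It was higher with p-benzoquinone, at 0.34 (0.25 to 0.43). All 4 ratios share the same DMSO list, so they are not independent of each other. The ratios of the genistein, mitoxantrone and p-benzoquinone lists were closer to 0 when library parts of the same kind were compared. For etoposide that held in the fine parts and not in the coarse one.

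The score steps divided the lists into parts, as many as the pooled libraries except in the DMSO list, which has 2 parts and 3 libraries. Low scores were whole multiples of small steps, within 0.012, so most scores under 8 could be assigned to a part. The share of them assigned to 1 part was 86.4% with etoposide, 89.7% with genistein, 98.6% with mitoxantrone, 87.5% with p-benzoquinone and 89.8% with DMSO. Fine parts had steps between 0.2276 and 0.2459, and coarse parts between 0.3237 and 0.3581. Fine parts numbered 2 in the etoposide list, 2 in the p-benzoquinone list and 1 in the DMSO list, and the genistein and mitoxantrone lists had coarse parts alone. Library titles with K562 number 2 for etoposide, 0 for genistein, 0 for mitoxantrone, 2 for p-benzoquinone and 2 for DMSO. That equals the number of fine parts in each list but DMSO, so its fine part may hold 2 libraries.

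Within the same treatment the segment differed between these parts. The fine DMSO part had a density ratio of 1.08 (1.01 to 1.16), and the coarse DMSO part 0.808 (0.712 to 0.913). The fine part over the coarse one gave a log2 ratio of 0.42 (0.22 to 0.63), with no difference in treatment. The fine etoposide parts likewise had 1.05 (0.865 to 1.25) and 1.07 (0.823 to 1.37), against 0.664 (0.578 to 0.759) in the coarse part. The fine DMSO part lay above the coarse one in 14 of 16 bins of 1 Mb, and the fine etoposide parts together above the coarse one in 14 of 16.

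Between treatments, parts of the same kind stood close together. The p-benzoquinone parts had ratios of 1.04 (0.938 to 1.15) and 1.09 (1.02 to 1.15), which over the fine DMSO part are log2 ratios of -0.060 (-0.24 to 0.12) and 0.0034 (-0.13 to 0.14). The genistein parts had 0.815 (0.706 to 0.936) and 0.749 (0.653 to 0.856), which over the coarse DMSO part are 0.013 (-0.26 to 0.28) and -0.11 (-0.37 to 0.16). The mitoxantrone part had 0.734 (0.634 to 0.845), or -0.14 (-0.41 to 0.14) over the coarse DMSO part. The fine etoposide parts over the fine DMSO part had -0.050 (-0.34 to 0.23) and -0.019 (-0.41 to 0.35). All these intervals held 0. The interval of the coarse etoposide part alone did not, at -0.28 (-0.55 to -0.017) over the coarse DMSO part. Library kind and poison thus cannot be told apart in the difference between any whole poison list and the whole DMSO list.

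**Figure D2:**
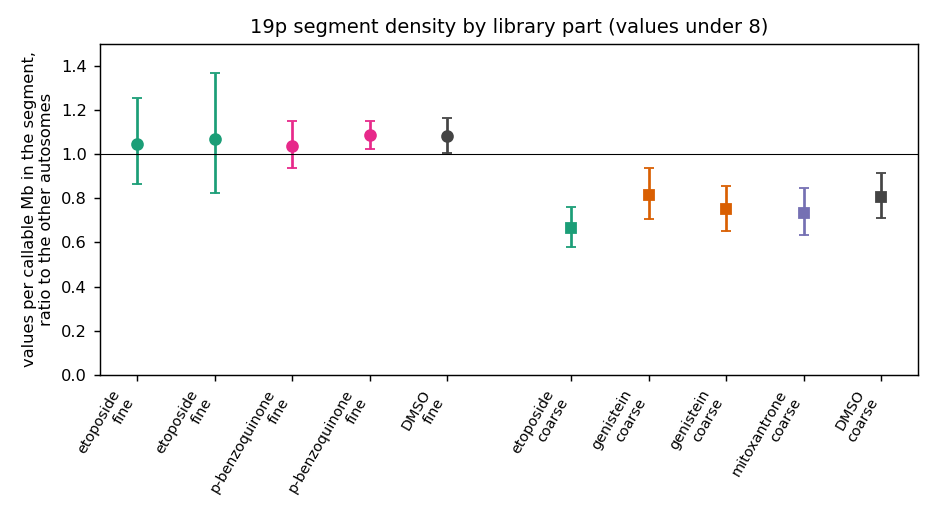
Density of scores under 8 in the 19p segment as a ratio to the other autosomes, for each library part, with 95% counting intervals. Circles on the left are fine parts, between 1.04 and 1.09, and squares on the right are coarse parts, between 0.664 and 0.815.

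The parts were taken from scores under 8, which are 53.1% of the scores in the etoposide list, 24.1% in genistein, 22.6% in mitoxantrone, 76.4% in p-benzoquinone and 60.6% in DMSO. Between 4 and 8 the larger p-benzoquinone part had a ratio of 1.18 (1.10 to 1.27), the smaller one 1.05 (0.833 to 1.30) and the fine DMSO part 1.10 (0.905 to 1.33). The corresponding values under 4 were 0.964 (0.877 to 1.06), 1.04 (0.923 to 1.16) and 1.08 (0.998 to 1.17). Higher scores could not be assigned to a part.

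The score itself also moved in different directions. With p-benzoquinone the median score was 5.31 in the segment and 4.83 on the other autosomes, a ratio of 1.10 (1.05 to 1.15), above the median of each of the 21 other autosomes, whose highest was 5.23. With DMSO it was 5.09 in the segment and 6.22 elsewhere, a ratio of 0.818 (0.781 to 0.923), below each of the 21, whose lowest was 5.74. The ratio was 0.914 (0.827 to 0.958) with etoposide, 0.944 (0.916 to 0.998) with genistein and 0.952 (0.903 to 1.00) with mitoxantrone. Within parts only scores under 8 were compared. That limit by itself draws medians together, so the part medians cannot be set against those of the whole lists. The larger p-benzoquinone part had 4.59 in the segment and 4.58 elsewhere, and the smaller one 2.95 and 2.73. The fine DMSO part had 2.76 and 2.77, and the coarse one 6.08 in both.

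The change of density with score followed the same split. In 4 score bands that divide the p-benzoquinone list equally, from low to high, the segment's density ratio was 0.954, 1.14, 1.17 and 1.28. In the same bands of the DMSO list it was 1.07, 0.981, 0.801 and 0.724. Over the whole lists the density ratio was thus highest for the strongest p-benzoquinone regions and lowest for the strongest DMSO regions. Within a part, at scores under 8, the DMSO ratio changed little. It was 1.08 under 4 and 1.10 from 4 to 8 in the fine part. In the coarse part it was 0.840 (0.519 to 1.29) and 0.805 (0.706 to 0.915). The highest DMSO band began at 11.98, above the scores that could be assigned to a part. In the larger p-benzoquinone part the ratio was 0.964 under 4 and 1.18 from 4 to 8, and in the smaller one 1.04 and 1.05. The etoposide bands gave 1.00, 0.715, 0.684 and 0.733. The genistein bands lay between 0.609 and 0.745, and those of mitoxantrone between 0.615 and 0.770.

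The CCRs of the segment were short and well spread. Their median width was 158 bp with etoposide, 156 with genistein, 157 with mitoxantrone, 151 with p-benzoquinone and 153 with DMSO. The median gap between neighbours was 12.9 kb with etoposide, 6.78 kb with genistein, 12.7 kb with mitoxantrone, 4.27 kb with p-benzoquinone and 6.50 kb with DMSO. The CCRs covered between 0.850% of the segment, with mitoxantrone, and 2.64%, with p-benzoquinone. The longest stretch without a CCR in any list was 60.3 kb, over part of ADGRL1, an adhesion G protein-coupled receptor that binds latrotoxin. Another, of 44.8 kb, covered the MBD3L2 to MBD3L5 cluster of near-identical genes, where short reads cannot always be placed.

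Along the segment, the deficit in the etoposide, genistein and mitoxantrone lists was spread over all of it. In 1 Mb bins, etoposide ranged from 0.570 to 0.989 of its mean over the other autosomes, genistein from 0.552 to 0.881 and mitoxantrone from 0.539 to 0.956. Of 16 bins, 0 were above the mean in each of these lists, whereas 54%, 56% and 54% of bins on the other autosomes were above it. With p-benzoquinone 13 of 16 bins were above the mean, from 0.731 to 1.37, against 47.9% elsewhere. With DMSO 4 of 16 were above it, from 0.642 to 1.32, against 49.9%.

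A bin was called when its density was 1.5-fold below the mean or lower. That held for 2 of 16 bins with etoposide, where 5.11% of bins elsewhere were called. With genistein it held for 9, against 5.54% elsewhere, and with mitoxantrone for 9, against 5.38%. It held for 0 bins with p-benzoquinone, against 15.4%, and for 1 with DMSO, against 5.5%. No bin was 1.5-fold above the mean in any list, where the shares elsewhere were 0.232%, 0%, 0.155%, 7.24% and 1.16% with etoposide, genistein, mitoxantrone, p-benzoquinone and DMSO. The low bins with genistein and mitoxantrone, 9 of 16 in each list, thus stood far above their background shares.

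Against DMSO, 14 of 16 bins were lower with etoposide, where 49.6% of bins elsewhere were. All 16 were lower with genistein, against 47.4% elsewhere, and all 16 with mitoxantrone, against 48.4%. With p-benzoquinone 15 of 16 bins were higher, against 46.8% elsewhere. At 1.5-fold, with all scores, few of these differences were called. Lower than DMSO were 1 bin with etoposide (background 1.28%), 1 with genistein (3.25%) and 3 with mitoxantrone (3.56%), and 0 with p-benzoquinone (5.11%). Higher were 0 with etoposide (1.63%), 0 with genistein (3.17%), 0 with mitoxantrone (3.72%) and 2 with p-benzoquinone (1.24%). The last count became 8 of 16 with scores of at least 4, and in 32 bins of 500 kb mitoxantrone was called lower in 13. The shares of bins elsewhere were not counted at these 2 settings, so these counts have no background. The bin that was lower with p-benzoquinone began 12 Mb from the segment's start, with a log2 ratio of -0.13. Within one kind of part, p-benzoquinone was above the fine DMSO part in 10 of 16 bins and genistein above the coarse DMSO part in 7. Mitoxantrone was above the coarse DMSO part in 3 bins only, so it stayed lower in most. The shares of bins elsewhere were not counted for parts.

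**Figure D3:**
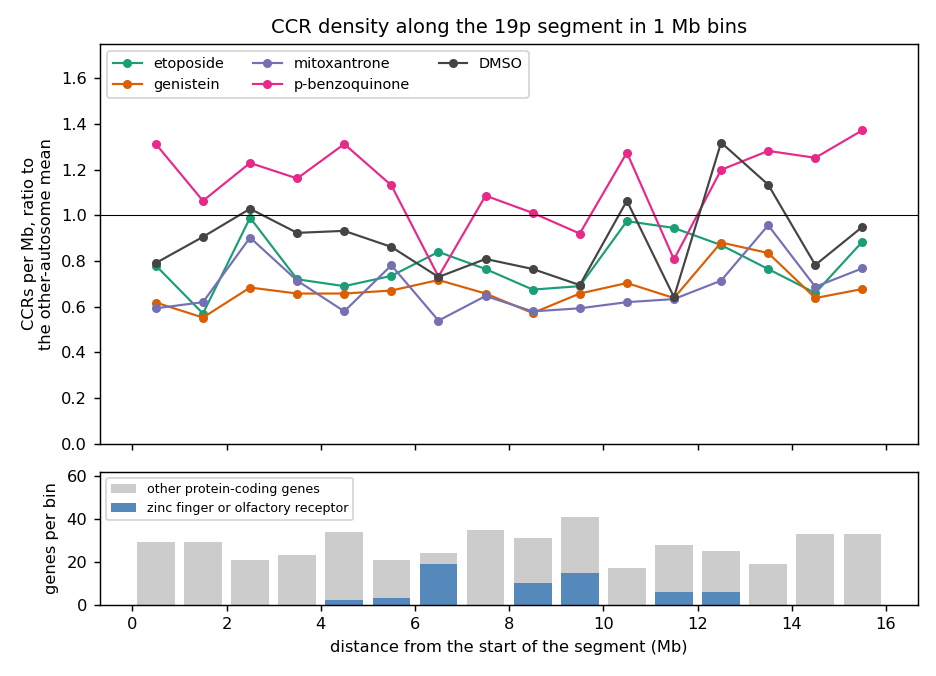
Top: CCRs per Mb in 16 bins of 1 Mb, as a ratio to the mean of the other autosomes, against the distance from the start of the segment; each line is 1 list. Bottom: protein-coding genes per bin, with zinc finger and olfactory receptor genes in blue. The p-benzoquinone line is above 1 in 13 bins and falls to 0.731 in the bin with most blue genes.

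The bins with clusters of zinc finger or olfactory receptor genes differed mainly in the p-benzoquinone list. Zinc finger genes encode DNA-binding repressors, and olfactory receptors are odorant receptors that are used in the nose and mostly silent in blood cells. In the 5 bins with at least 5 such genes, the p-benzoquinone density was 0.933 of the other-autosome mean, against 1.22 in the other 11 bins. The values were 0.803 and 0.775 with etoposide, 0.693 and 0.668 with genistein, 0.611 and 0.715 with mitoxantrone, and 0.830 and 0.925 with DMSO. On the other autosomes, the 29 bins with such clusters had p-benzoquinone densities of 0.944 of the mean. The lowest p-benzoquinone bin, 0.731, began 6 Mb from the segment's start and held 12 zinc finger and 7 olfactory receptor genes.

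Gene number alone gave a different picture from that of the whole segment. The segment has 444 protein-coding genes, 27.75 per Mb, against 6.90 per Mb on the other autosomes, and their median length is 13.9 kb against 26.3 kb. On the other autosomes, bins with more genes had fewer CCRs with genistein, from 1.07 of the mean in bins with no gene to 0.779 in bins with over 30. With p-benzoquinone the order ran the other way, from 0.701 to 1.24.

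Bins as gene-dense as those of the segment were found 148 times elsewhere, counting those with at least 21 genes, and 14 times in the segment. The pooled density of such bins was 0.772 in the segment and 0.917 elsewhere with etoposide. It was 0.662 and 0.805 with genistein, and 0.668 and 0.833 with mitoxantrone. With p-benzoquinone it was 1.11 in the segment and 1.22 elsewhere, and with DMSO 0.866 and 1.01. Among equally gene-dense bins the pooled value of the segment was thus lower in every list, p-benzoquinone included, although its 2 bins with 11 to 20 genes were higher with p-benzoquinone (1.28 against 1.16) and with DMSO (1.10 against 1.02). With p-benzoquinone the gap was smaller when bins with zinc finger or olfactory receptor clusters were set apart. Bins with such clusters had 0.933 in the segment and 0.944 elsewhere. The other 11 segment bins had 1.22, against 1.26 in 129 bins elsewhere with at least 21 genes and no such cluster. The number of the 14 segment bins below the median of the others was 12 with etoposide, 13 with genistein, 13 with mitoxantrone, 8 with p-benzoquinone and 12 with DMSO.

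**Figure D4:**
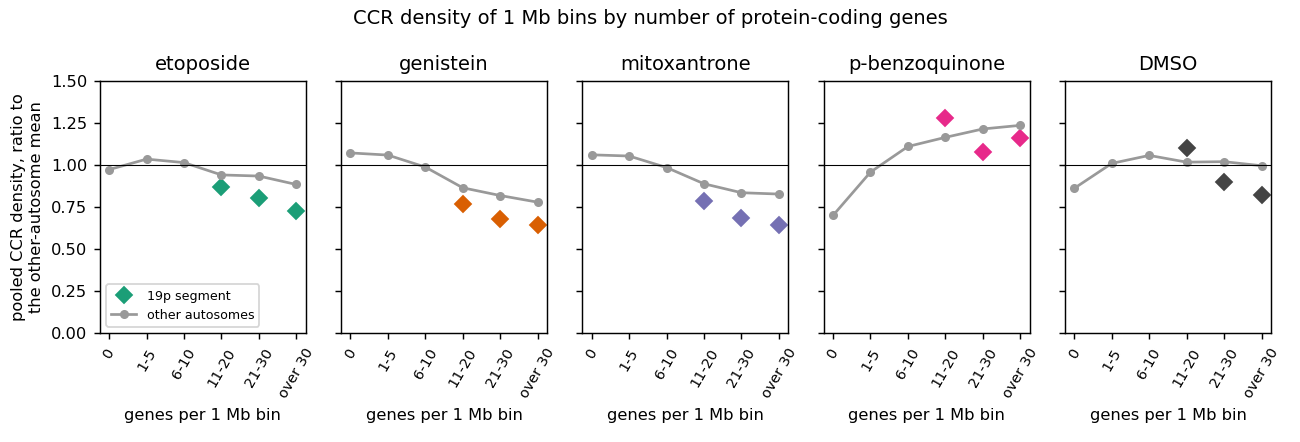
Pooled CCR density of 1 Mb bins, as a ratio to the mean of the other autosomes, by the number of protein-coding genes in the bin; 1 panel for each list, diamonds for the 19p segment and grey circles for the other autosomes. In bins with over 30 genes the diamonds lie below the circles in all 5 panels (0.643 against 0.779 with genistein, 1.16 against 1.24 with p-benzoquinone).

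Within the segment CCRs lay in gene bodies slightly more often than bases do. Gene bodies took up 65.2% of its bases, against 44.9% on the other autosomes. The share of CCR centres in gene bodies was 73.5% with p-benzoquinone, an enrichment of 1.13 (1.10 to 1.15), where the other autosomes had 1.09. With mitoxantrone it was 72.3%, an enrichment of 1.11 (1.06 to 1.16), against 1.02 elsewhere. The enrichment was 1.06 (1.03 to 1.10) with genistein, 1.08 (1.05 to 1.12) with DMSO and 1.04 (0.992 to 1.09) with etoposide, against 1.02, 1.05 and 1.03 elsewhere.

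Of the 5 lists, only p-benzoquinone had an enrichment near start sites whose interval lay above 1. Windows of 1 kb on each side of a start took up 4.34% of the segment's bases, over the 371 genes with a listed start, against 1.03% on the 20 other autosomes with starts in the table. The p-benzoquinone CCRs were enriched there 1.25-fold (1.04 to 1.47), and 1.28-fold elsewhere. At scores under 8 its larger part had 1.35 (1.05 to 1.69) and its smaller part 0.842 (0.464 to 1.396), against 1.13 (0.799 to 1.54) in the fine DMSO part. The other intervals held 1: 0.908 (0.629 to 1.27) with etoposide, 1.02 (0.805 to 1.28) with genistein, 0.852 (0.578 to 1.21) with mitoxantrone and 0.990 (0.775 to 1.24) with DMSO. At 5 kb on each side, p-benzoquinone had 1.00 (0.923 to 1.08) in the segment and 1.21 elsewhere. Windows of that size took up 20.3% of the segment's bases and 4.96% elsewhere, and the width of the excess was not measured. The median distance from a CCR to a start was between 16.01 and 17.0 kb in the segment, where that of all bases was 15.2 kb. Elsewhere it was 86.2 kb with p-benzoquinone and 114 kb with genistein, around the 102 kb of all bases.

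The 300-base start windows held a CCR in 8 of 371 cases with etoposide (2.16%, background 2.28%), 17 with genistein (4.58%, background 4.23%) and 9 with mitoxantrone (2.43%, background 2.11%). They held one in 26 cases with p-benzoquinone (7.01%, background 6.96%) and in 20 with DMSO (5.39%, background 4.37%). All these shares were near the background. The 70 windows with a CCR in any list had a median of 14 CpG and 60.7% G and C, against 23 CpG and 64.7% in the 301 without. The other autosomes had 13 CpG and 57.0% in 2400 windows with a CCR, and 24 CpG and 64.3% in 11516 without. Of the 2 windows printed above, PIP5K1C with 42 CpG is thus on the CpG-rich side and the olfactory receptor window on the other. Of 34 microRNA hairpins in the segment 5 were overlapped, or 14.7% (4.95% to 31.1%), against a background of 11.9% elsewhere. Each was overlapped by 1 list: MIR7-3 with etoposide, MIR4748 and MIR6793 with genistein, and MIR4747 and MIR6515 with p-benzoquinone.

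Relative to the bases they cover, lists overlapped each other more in the segment than elsewhere. The share of one list's CCRs that overlapped another list by at least 1 bp, divided by the share of bases the other list covers, was higher in the segment for all 20 ordered pairs, with no test of the difference. Each pair of lists was counted from both sides and pairs share lists, so these comparisons are not independent. It was 5.06 in the segment and 3.91 elsewhere for etoposide CCRs with mitoxantrone, and 3.43 and 3.05 for genistein CCRs with p-benzoquinone. The shares behind these segment values were 4.30% (3.03% to 5.91%) and 9.06% (7.71% to 10.5%). In both examples the counting error of the segment value reached the value elsewhere. It did not for mitoxantrone CCRs with p-benzoquinone, at 4.44 in the segment and 3.06 elsewhere, and the other pairs went both ways.

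The plain shares did not all move one way. Of the mitoxantrone CCRs, 11.7% (9.58% to 14.1%) overlapped a p-benzoquinone CCR in the segment, against 6.97% elsewhere. For etoposide CCRs the share was 12.8% (10.6% to 15.2%), against 8.68%. As shares of the p-benzoquinone CCRs, the overlap with mitoxantrone was 3.95% in the segment and 3.91% elsewhere, that with etoposide 4.49% and 4.37%, and that with genistein 6.19% (5.26% to 7.23%) and 7.94%. The p-benzoquinone list covers 2.64% of the segment and 2.28% of the other autosomes.

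Most CCRs were seen in 1 list. Of 6398 merged regions in the segment, 5567 (87.0%) came from 1 list, against 87.7% elsewhere. Another 743 (11.6%) came from 2 lists, against 10.9% elsewhere, and 82 (1.28%) from 3, against 1.31%. These shares were close to those of the other autosomes.

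In 4 lists there were 6 merged regions (0.0938%, against 0.121% elsewhere), and 0 were in all 5. One of them, at chr19:18716753-18717188, lies in CRTC1, a CREB coactivator known as a fusion partner in salivary tumours. Its scores were 19 with genistein, 10.36 with mitoxantrone, 1.82 with p-benzoquinone and 2.07 with DMSO. Another, at chr19:10836519-10837008, lies in C19orf38, with 2.97 for etoposide, 11.11 for genistein, 12.78 for p-benzoquinone and 4.39 for DMSO. The other 4 lay in SEMA6B, PTPRS, FBN3 and CYP4F11.

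Of the 15 regions with the 3 highest scores in each list, 5 overlapped a region of another list. With p-benzoquinone the highest in the segment scored 69.83 and stood at rank 12 of the whole list, at chr19:9045101-9045320 in MUC16, which encodes the mucin CA125. With mitoxantrone it scored 135.49, at rank 61, at chr19:18657361-18657673 in KLHL26, and regions of the etoposide and p-benzoquinone lists overlapped it. With etoposide it scored 43.84, at rank 894, in OLFM2, where regions of the p-benzoquinone and DMSO lists overlapped it, and with genistein 102.72, at rank 619, in ADGRE3. With DMSO it scored 153.31, at rank 11, between genes and 67.6 kb from CACNA1A. The vehicle list thus held one of its strongest regions genome-wide in the segment. PODNL1 carried the second highest of both the mitoxantrone list (125.77) and the DMSO list (105.6), at different places, since neither overlapped a region of the other list.

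By gene, CCRs were counted over the body and 2 kb on each side, and the longest genes held most. CACNA1A, the pore subunit of P/Q-type calcium channels and 300.04 kb long, had 13 CCRs with etoposide, 37 with genistein, 18 with mitoxantrone, 59 with p-benzoquinone and 43 with DMSO. MUC16 had 15, 24, 16 and 44 with the poisons in that order, and 31 with DMSO. These are raw counts, and the lists differ in size. Per kb, the highest value was in a short gene of the p-benzoquinone list, SNAPC2, a subunit of the complex that activates small nuclear RNA promoters, with 0.723 CCRs per kb. With DMSO the highest were FCER2, the low-affinity IgE receptor, with 0.346, and CYP4F2 with 0.333. The CYP4F genes are close copies of each other, so reads there may be shared between them. With genistein CD209, a lectin of dendritic cells, led with 0.433, with etoposide TJP3, a tight junction protein, with 0.129 and with mitoxantrone JAK3, a cytokine receptor kinase, with 0.184.

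Of the 444 genes, a CCR was found in 288 with etoposide (64.9%, against 72.9% on the other autosomes). It was found in 367 with genistein (82.7%, against 83.5%) and in 263 with mitoxantrone (59.2%, against 73.4%). With p-benzoquinone it was found in 397 genes (89.4%, against 86.5%) and with DMSO in 358 (80.6%, against 82.5%). Genes of the segment are shorter than elsewhere, and these shares were not adjusted for length. CCRs of all 5 lists were found in 174 genes, where the share elsewhere was 58.2%. Genes without a CCR in any list numbered 8, where the share elsewhere was 7.49%, and the longest was STX10, a vesicle fusion protein gene of 6.3 kb.

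Single genes differed from DMSO in both directions. Ratios were scaled to list size, with 0.5 added to each count, and ranked where the poison or DMSO list held 10 CCRs or more. With p-benzoquinone 53 genes could be ranked. UNC13A, a synaptic vesicle priming factor, had 32 CCRs with p-benzoquinone and 4 with DMSO, a log2 ratio of 2.63. MATK, a kinase of blood cells that restrains Src family kinases, and MAST3, a microtubule-associated kinase, each had 10 against 1, or 2.60. For UNC13A the excess was also there within one kind of part, at scores under 8: 16 with p-benzoquinone and 2 in the fine DMSO part, which was 0.485 times as large. At the other end AKAP8L had 6 against 10, or -0.89.

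RFX2, a transcription factor of ciliated cells and the testis, stood high with 3 poisons, whose ratios share the DMSO count. It had 12 CCRs with etoposide, 18 with genistein and 15 with mitoxantrone, against 9 with DMSO. The log2 ratios were 1.14 among 29 ranked genes, 0.56 among 33 and 1.31 among 30. With 22 CCRs, p-benzoquinone had 1.03. AP1M1, an adaptor subunit of clathrin coats, had 11 with genistein and 3 with DMSO, or 1.32. PDE4C, a cyclic AMP phosphodiesterase, had 0 with etoposide and 10 with DMSO, which at a floor of 3 counts is at least 1.95-fold lower. DPP9, a cytosolic peptidase, had 2 with etoposide and 11 with DMSO, or -1.56. OLFM2, a secreted olfactomedin, had 5 with genistein and 13 with DMSO, or -1.67, and AKAP8L, a nuclear anchoring protein, 1 with mitoxantrone and 10 with DMSO, or -2.37. Within one kind of part, at scores under 8, not all of these remained. Scaled to the coarse DMSO part, RFX2 had 1.97, 2.39 and 2.42 with the 3 poisons, against 2. In the fine etoposide parts it had 0, against 5 in the fine DMSO part. Those etoposide parts were small, so that 1 CCR there scaled to 4.07, and a 0 says little. Scaled in the same way, AKAP8L had 1.21 with mitoxantrone and OLFM2 1.19 with genistein, against 0 in the coarse DMSO part. DPP9 had 1.97 with etoposide against 1 in coarse parts, and 0 against 6 in fine ones. AP1M1 kept its excess with genistein, at 2.98 against 0. PDE4C had 0 with etoposide, against 1 in the coarse and 5 in the fine DMSO part. Counts of this size carry wide counting error, and no test was made.

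Gene lists were compared by their pooled CCRs per kb over the mean of the other autosomes, beside the same for all 444 genes. Over all 444 it was 0.805 with etoposide, 0.723 with genistein, 0.733 with mitoxantrone, 1.28 with p-benzoquinone and 0.960 with DMSO. Genes above the other-autosome mean made up 36.3%, 21.8%, 26.1%, 61.3% and 41.4% of them in the same order, against 43%, 41.8%, 41.5%, 54.4% and 48% of genes elsewhere.

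The genes listed as highly transcribed stood highest with p-benzoquinone, at 1.91, with 7 of 8 above the mean. With DMSO they had 1.36, with 6 of 8. No RNA was measured here, so the name of the gene list is not a result of these data. Its members are ribosomal, translation and RNA-processing genes and CALR, a chaperone of the endoplasmic reticulum. RPS28, a small ribosomal subunit protein, had 4 CCRs with p-benzoquinone and 0 with DMSO. CALR had 4 and 1. EEF2, the translocation factor of translation, had 2 with p-benzoquinone and 2 with DMSO. The gene list had 1.22 with etoposide, 1.07 with genistein and 0.769 with mitoxantrone.

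The 14 genes over 100 kb were all above the mean with p-benzoquinone, at 1.43 pooled, and 10 of 14 were with DMSO, at 1.12. The share among equally long genes elsewhere was not counted, so these counts have no background matched for length. With etoposide they had 0.932 and 5 of 14, with genistein 0.783 and 3, and with mitoxantrone 0.869 and 4. NFIX, a nuclear factor of blood and muscle progenitors, had 10 CCRs with etoposide, 24 with genistein, 7 with mitoxantrone, 27 with p-benzoquinone and 16 with DMSO. INSR, the insulin receptor, had 10, 10, 6 and 27 with the poisons in that order, and 20 with DMSO.

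The 10 chromatin and replication genes had 1.33 with p-benzoquinone, where all 10 were above the mean, and 1.24 with DMSO, where 8 were. These counts too have no background matched for gene length. They had 0.877 with etoposide, 0.760 with genistein and 0.975 with mitoxantrone. DNMT1, the maintenance DNA methyltransferase, had 10 CCRs with p-benzoquinone and 5 with DMSO. SMARCA4, the ATPase of BAF remodelling complexes, had 18 and 13.

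The 12 erythroid and blood cell genes had 1.49 with p-benzoquinone, with 6 above the mean, and 1.10 with DMSO, with 6. Of their 68 p-benzoquinone CCRs, 27 lay in NFIX. Their median gene had 0.973 with p-benzoquinone, below the median of 1.22 over all 444 genes. VAV1, an exchange factor of lymphocyte signalling, had 13 CCRs with p-benzoquinone and 13 with DMSO. KLF1, the master regulator of red cell genes, had 1 CCR with etoposide, 1 with genistein, 1 with mitoxantrone, 0 with p-benzoquinone and 0 with DMSO, and EPOR, the erythropoietin receptor, had 1, 0, 1, 1 and 1. Such short genes hold too few CCRs for a comparison. The 5 immediate early and stress genes together had 3, 5, 2 and 4 CCRs with the poisons and 4 with DMSO.

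Genes that fuse with KMT2A in leukaemia are of interest because TOP2 poisons are linked to therapy-related leukaemia. The 5 partners in the segment had 1.37 with p-benzoquinone and 1.13 with DMSO, and 0.843 with etoposide, 0.616 with genistein and 0.757 with mitoxantrone. MLLT1, a reader of acylated histones in elongation complexes, had 3 CCRs with etoposide, 10 with genistein, 3 with mitoxantrone, 19 with p-benzoquinone and 6 with DMSO. ELL, an elongation factor, had 8, 8, 3 and 19 with the poisons in that order, and 14 with DMSO. MYO1F, a myosin of white cells, had 7 with etoposide and 7 with DMSO. With genistein 0 of the 5 were above the other-autosome mean.

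The 42 zinc finger genes were low in all lists, at 0.669 with etoposide, 0.765 with genistein, 0.665 with mitoxantrone, 0.757 with p-benzoquinone and 0.651 with DMSO. With p-benzoquinone 13 of them were above the mean, and with DMSO 10. The 19 olfactory receptor genes had 0.823, 0.890, 0.986 and 0.883 with the poisons in the order above, and 0.675 with DMSO. With p-benzoquinone both groups thus lay below the 1.28 of all genes of the segment. The 5 adhesion receptor genes had 0.729, 0.662, 0.468 and 0.970 with the poisons in that order, and 0.886 with DMSO.

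**Figure D5:**
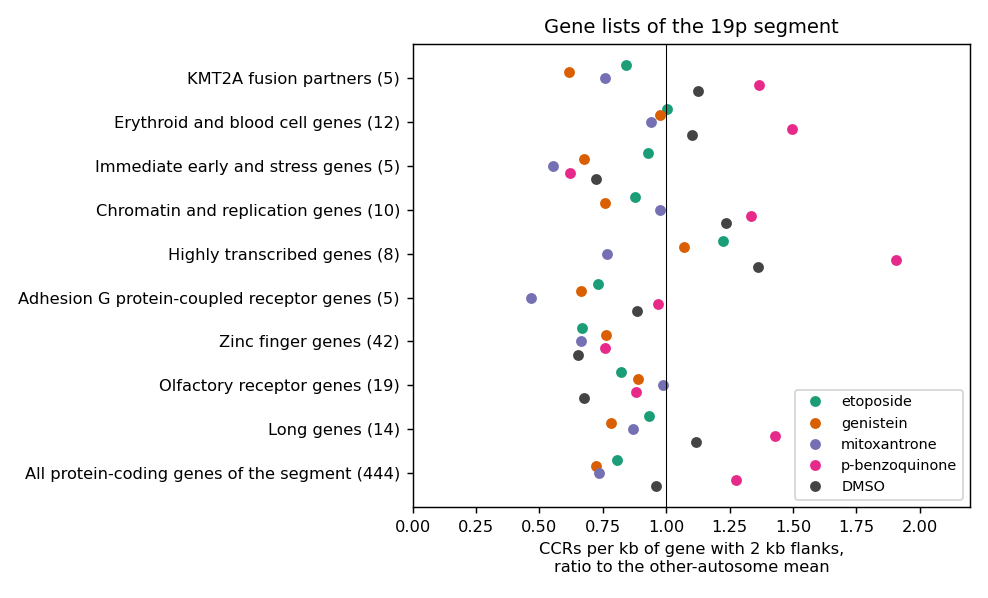
Pooled CCRs per kb of gene lists of the 19p segment (rows, with the number of genes in brackets), as a ratio to the mean of the other autosomes on a linear axis; each colour is 1 list. The p-benzoquinone points run from 0.622 for immediate early and stress genes to 1.91 for genes listed as highly transcribed. The zinc finger genes are below 1 in all 5 lists.

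The mitoxantrone list alone carried a value of input DNA for each CCR. Its median was 0.23 in the segment and 0.23 on the other autosomes, and its mean 0.451 and 0.459. The input value was 0 in 193 of the 811 segment CCRs, 23.8% (20.9% to 26.9%), against 21.99% elsewhere. These values cover called regions only, so the DNA copy number of the segment in K562 was not measured, and its part in the density ratios was not tested.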

How the data were processed

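TOP2A-bound DNA from K562 cells was sequenced, per the labels' protocols. Per the submitters' processing notes the tools were SAMtools 0.1.19 and Bowtie2 2.1.0 and the build hg38. How regions were called is not given in the sources used here. Start and end of each region were deposited, with the libraries of a treatment pooled into 1 list. The unit of the score that the authors deposited is not stated, and where several values were given the highest was used. The mitoxantrone list was tied to its library by treatment.

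Overlapping entries of a list were joined, which changed the genistein list alone (1688 entries in the segment, 1645 after joining). Genes, starts, hairpins and sequences came from RefSeq tables of GRCh38.p14, and chromosome 8 has no starts in the promoter table. Intervals are exact binomial 95% intervals, and cover counting error only, since reads copied by PCR carry no molecular identifiers and are not separate molecules. The files hold called regions and no depth, so depth is unknown. The lowest score was 1.82 with etoposide, 3.72 with genistein, 3.87 with mitoxantrone, 1.82 with p-benzoquinone and 1.84 with DMSO.

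Steps were added until at least 94% of scores under 8 were explained within 0.012. The DMSO list has 2 parts although its labels name 3 amplified libraries, so its fine part may hold 2 libraries with the same step.

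The members, gene lists and tests were chosen with earlier results of these data known. Named genes were, per list, the 3 with most CCRs and the 3 with most per kb among those with at least 5. For each poison they were the 3 highest and 3 lowest log2 ratios where the poison or DMSO list held 10 CCRs or more, plus the members of the gene lists. The text gives those with the clearest counts, and some genes that the rule names are left out. Analyses ran in Python 3.11.15 (matplotlib 3.10.9, scipy 1.17.1, pandas 2.3.3, numpy 2.4.6) and were tested on simulated data.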

Additional observations from a re-analysis of the deposited data

How the results depend on the processing

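Of 280 values under other settings, 227 kept their direction and stayed close to the value reported, 48 moved and 5 reversed; the cause was not tested except where the setting itself shows it. Library parts turned the direction of the segment's density ratio to 1.05 and 1.07 in the fine etoposide parts and to 1.08 in the fine DMSO part. It was 0.664 in the coarse etoposide part, 0.815 and 0.749 in the genistein parts, 0.734 in the mitoxantrone part, 1.04 and 1.09 with p-benzoquinone and 0.808 in the coarse vehicle part. The log2 ratio over the same kind of DMSO part turned to 0.0129 in a genistein part and to -0.0599 in a p-benzoquinone part. It was -0.0501 and -0.0192 in the fine etoposide parts, -0.108 in the other genistein part, -0.138 in the mitoxantrone part and 0.00344 in the other p-benzoquinone part.

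With scores of at least 4, the density ratio was 0.718 with etoposide, 1.22 with p-benzoquinone and 0.811 with DMSO. The log2 ratio over DMSO was then -0.258 with genistein, -0.246 with mitoxantrone and 0.589 with p-benzoquinone, and the score ratio 1.0, 1.02 and 0.926 with etoposide, p-benzoquinone and DMSO. Called bins were then 6 below the mean with etoposide and 2 with DMSO, and over DMSO 0 lower with genistein, 1 lower with mitoxantrone and 8 higher with p-benzoquinone. The share of bins called elsewhere with scores of at least 4 was not counted. Over all bins between the first and last region, the density ratio was 0.84 with etoposide, 0.723 with genistein, 1.21 with p-benzoquinone and 0.959 with DMSO. At 5 kb from starts the p-benzoquinone enrichment was 1.0.

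In the 32 bins of 500 kb, 9 were called below the mean with etoposide and 5 with DMSO, and 1 above it with p-benzoquinone. Over DMSO, 1 was higher and 4 lower with etoposide, 8 lower with genistein, 13 lower with mitoxantrone and 8 higher with p-benzoquinone. The share of 500 kb bins called elsewhere was not counted, so none of these counts has a background. From 4 to 18 Mb, 1 bin was higher with p-benzoquinone over DMSO. At 2-fold, 0 bins were called in any of these comparisons, as a stricter call gives fewer. Windows around both gene ends, bins with the deposited entries unjoined, and leaving out mitoxantrone CCRs with an input value of 0 were chosen after seeing the data. They left all 24 values within their counting error or within 1.5 times the count. No paired analysis was possible because each list pools the libraries of a treatment, and for the same reason leaving out a replicate was not run.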
